A study of Homo sapiens with 6 samples.

Results

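The HOX cluster genes are the protein-coding genes named HOXA, HOXB, HOXC or HOXD followed by a number. GENCODE 29 holds 39 of them, and 35 were among the 28181 genes listed for every library. These were 11 of 11 HOXA genes, 7 of 10 HOXB genes, 8 of 9 HOXC genes and 9 of 9 HOXD genes. HOXB1, HOXB2, HOXB8 and HOXC12 were not analysed here. RNA-seq was performed on UE7T-9, a line of human mesenchymal stem cells from bone marrow that had been immortalized with hTERT and the E7 gene of human papillomavirus. UE7T-9 SHC4 had been infected with a lentivirus carrying SHC4, which encodes an SH2 domain adapter protein of receptor tyrosine kinase signaling, and 3 libraries were sequenced from it. UE7T-9 Cont gave another 3 libraries. These controls carried a GFP vector according to the study's methods, whereas the sample labels call them nontarget with a wild-type genotype. Cells of both groups came from the same immortalized line. The labels name biological replicates and the design text speaks of clones, but neither states whether each library came from its own infection, clone or culture, so the spread between them may be partly technical.

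HOX genes encode homeodomain transcription factors that give cells an identity along the head-to-tail axis and along the limb. In each cluster the genes lie in the order in which they are expressed along the body: low-numbered paralog groups act in the hindbrain and neck, middle groups in the trunk, and high-numbered groups in the lumbosacral region and the distal limb. Mesenchymal cells of adult tissues, including those of bone marrow, keep a HOX pattern that reflects where in the body they came from. Members with the same number in different clusters are paralogs, and the TALE homeodomain proteins of the PBX, MEIS and PKNOX families bind DNA together with them, whereas Polycomb complexes keep silent HOX genes off and Trithorax complexes keep active ones on.

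To make visible how far reads from paralogs can be told apart, the part of the messenger RNA that encodes the homeodomain is shown for the 3 members of paralog group 10, among them HOXC10, the most abundant member in UE7T-9, and for HOXC9 and HOXD9 of group 9. All 5 stretches are 180 bases long and lie in exon 2 of 2 of the longest coding transcript in GENCODE 29. They are printed in the direction of transcription. Capitals in the group 10 sequences mark bases that differ from HOXC10.

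HOXC10 (GRCh38 chr12:53989219-53989398, plus strand): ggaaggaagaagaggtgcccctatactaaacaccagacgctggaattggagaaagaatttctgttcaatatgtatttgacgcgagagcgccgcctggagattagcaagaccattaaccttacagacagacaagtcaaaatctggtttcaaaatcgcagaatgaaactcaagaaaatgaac
HOXA10 (GRCh38 chr7:27171947-27172126, minus strand): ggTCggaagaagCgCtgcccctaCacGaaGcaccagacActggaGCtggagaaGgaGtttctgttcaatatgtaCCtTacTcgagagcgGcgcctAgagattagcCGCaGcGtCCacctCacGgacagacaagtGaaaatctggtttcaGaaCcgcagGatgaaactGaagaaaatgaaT
HOXD10 (GRCh38 chr2:176119004-176119183, plus strand): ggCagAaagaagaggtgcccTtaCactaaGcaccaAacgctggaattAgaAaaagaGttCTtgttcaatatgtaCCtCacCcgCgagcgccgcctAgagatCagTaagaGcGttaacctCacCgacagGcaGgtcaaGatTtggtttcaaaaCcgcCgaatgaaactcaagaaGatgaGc

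In the group 9 sequences, capitals mark bases that differ from HOXC9.

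HOXC9 (GRCh38 chr12:54002465-54002644, plus strand): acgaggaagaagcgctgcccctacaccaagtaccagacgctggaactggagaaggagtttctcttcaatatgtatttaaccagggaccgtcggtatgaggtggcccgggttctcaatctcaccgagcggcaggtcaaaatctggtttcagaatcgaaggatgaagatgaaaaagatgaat
HOXD9 (GRCh38 chr2:176123969-176124148, plus strand): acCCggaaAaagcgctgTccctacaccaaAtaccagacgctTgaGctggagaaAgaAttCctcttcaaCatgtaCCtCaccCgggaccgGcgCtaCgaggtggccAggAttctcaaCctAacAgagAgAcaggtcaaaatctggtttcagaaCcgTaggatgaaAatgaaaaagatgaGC

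HOXA10 differed from HOXC10 at 33 of the 180 bases and HOXD10 at 31. HOXD9 differed from HOXC9 at 30 bases. The longest run of identical bases was 17 between HOXC10 and HOXA10, 16 between HOXC10 and HOXD10, and 23 between HOXC9 and HOXD9. Over all annotated transcripts, 33 of the 35 members had no stretch of 50 bases in common with a member of another cluster. The largest share of such stretches was 0.372%, in HOXD3. Within a cluster the members were less separate, since some genes overlap each other or a noncoding gene. HOXD10 and HOXD11 share 452 exon bases, HOXC4 and HOXC6 share 484, and HOXB3 and HOXB6 share 433. The library kit does not mark the strand, so reads from a HOX gene and from an antisense gene on the same bases cannot be told apart. In exon bases, the share that also belongs to another gene was 80.5% in HOXD4, 74.1% in HOXD3, 62.5% in HOXA7, 59.9% in HOXC5, 58.1% in HOXD1, 47.3% in HOXA4 and 40.1% in HOXA6, and values of these genes are uncertain for that reason. This share was 27.04% in HOXA9, 26.3% in HOXA10 and 9.82% in HOXC10.

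The libraries held 18144993 to 27721397 reads, of which 3611 to 5305 came from HOX genes. SHC4 itself gave 56.5, 157 and 130 in UE7T-9 Cont against 134870, 119166 and 155006 normalized counts in UE7T-9 SHC4. The mesenchymal stem cell markers THY1, NT5E, ENG, CD44, PDGFRB, ITGB1 and ALCAM were all detected in every library, with mean levels from 24.9 to 239 RPKM (reads per kilobase of exon, scaled to the total of the library). The 6 hematopoietic markers that were listed reached at most 1.70 on that scale, the 4 endothelial markers at most 0.2204 and the 3 epithelial markers at most 0.159, and PTPRC, CDH5 and EPCAM, which define these types, lay at 0.0137, 0.00288 and 0.0359. UE7T-9 Cont replicate 1 stood apart from its group: across the 23040 genes tested, its log2 values correlated at 0.975 with the first UE7T-9 SHC4 library, but at 0.967 and 0.962 with the other control libraries. Results are therefore also given without it where they change.

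UE7T-9 expressed a posterior HOX program in which HOXC10 stood above all other members. To compare genes, levels are given in RPKM, and a mean of 1 on this scale separated 14 members from 21 that were lower. Of the 14, 7 were HOXA genes, 5 were HOXC genes, 2 were HOXD genes and none was a HOXB gene. HOXC10, a gene of lumbosacral and hindlimb patterning, had levels from 20.2 to 24.5 across the 6 libraries. Its mean of 23.0 lay at the 89.4th percentile of the protein-coding genes among those listed, which all had a read in some library. HOXA10, known for its part in the development of the uterus and hindlimb, followed with 6.86 to 9.48. HOXA9, which also acts in blood stem cells and in leukemia, had 5.80 to 10.3. On this scale the range of HOXC10 did not meet that of HOXA10, whereas HOXA10 and HOXA9 overlapped, with HOXA10 higher in 4 of 6 libraries. With coding length instead, HOXA9 had the higher mean level, with 28.7 against 23.7.

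**Figure D1:**
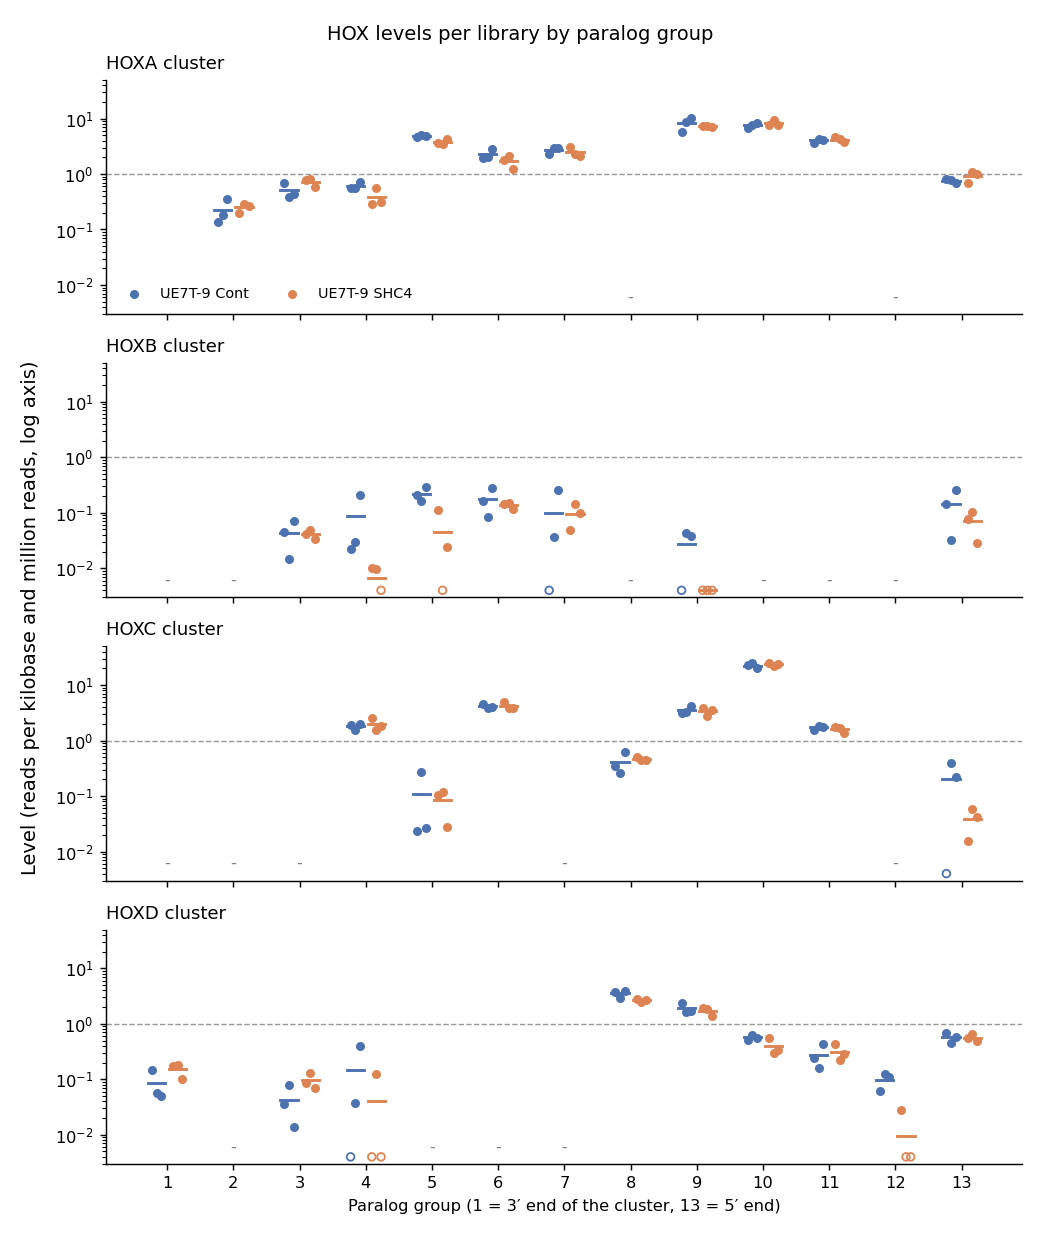
Level of 34 HOX genes in RPKM (log axis) by paralog group, 1 panel per cluster; points are the 6 libraries, short bars are group means of 3 libraries (drawn at the bottom where the mean is 0), open circles at the bottom are libraries with no read, small dashes mark groups with no member shown, and the dashed line is at 1. HOXC10 lies highest at 20.2 to 24.5, group 9 to 11 genes of HOXA and HOXC lie above 1, and the whole HOXB cluster lies below 1.

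In the HOXA cluster on chromosome 7, expression was seen along the whole cluster, with 2 stretches of higher level. HOXA2, HOXA3 and HOXA4, which act in the hindbrain, pharyngeal arches and neck, had mean levels of 0.239, 0.617 and 0.50. HOXA5, a gene of cervical and upper thoracic patterning and of the lung, had 4.30, followed by HOXA6 at 2.00 and HOXA7 at 2.60. HOXA9 and HOXA10 were highest with 7.72 and 7.87. Toward the 5′ end the level was 4.11 in HOXA11, which patterns the forearm and lower leg, and 0.842 in HOXA13, which patterns hand, foot and genital tract. All 11 HOXA genes had at least 3 reads in every library.

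The HOXC cluster on chromosome 12 combined the most abundant member with several of low measured level. HOXC10 was flanked by HOXC9, a thoracic gene, with a mean level of 3.46, and HOXC11 with 1.65. Further toward the 3′ end, HOXC6 reached 4.15 and HOXC4 reached 1.90. HOXC5, which lies between HOXC6 and HOXC4, was at 0.0963, and HOXC8, between HOXC9 and HOXC6, was at 0.438, so low genes stood among expressed neighbours. HOXC13, a gene of hair and nail formation, was at 0.121. HOXC4 and HOXC6 share exon bases with each other, so how reads divide among them depends on the authors' counting. The same holds for HOXC5, where 59.9% of exon bases also belong to another gene. Of these bases, 1081 are shared with a second gene entry of that name, so the low value of HOXC5 is uncertain.

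Expression of the HOXD cluster on chromosome 2 was centred on its middle. HOXD8 had a mean level of 3.09 and HOXD9, a gene of the proximal limb, had 1.81. Levels were lower on both sides of these genes. HOXD10 was at 0.484, HOXD11 at 0.295 and HOXD12 at 0.0536, but HOXD13, the gene of digit formation at the 5′ end, was higher than HOXD12 in every library with a mean of 0.566. At the 3′ end HOXD1, HOXD3 and HOXD4 were at 0.118, 0.0692 and 0.0935, and much of their exon sequence belongs to other genes as well.

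The HOXB cluster on chromosome 17 was close to silent. None of its 7 genes reached a mean level above 0.157, and no HOXB gene had more than 18 reads in any library. All HOXB genes together had 42, 19 and 82 reads in UE7T-9 Cont against 34, 38 and 17 reads in UE7T-9 SHC4. HOXB6 was the highest with 0.157, and was the only HOXB gene with at least 3 reads in all 6 libraries. HOXB5 followed with 0.132, and HOXB13, a gene of the prostate, with 0.107. HOXB9 had at most 2 reads in any library and none in UE7T-9 SHC4, which is under the floor of 3 reads in every library. A floor of 3 reads is equal to 2.50 to 3.53 on the scale of normalized counts. For these genes a low level in all cells and expression in few cells cannot be told apart in bulk RNA.

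Summed over members, the per-length level was shared almost evenly between HOXA, with a mean of 43.7% over the 6 libraries, and HOXC, with 46.7%. HOXD held 8.81% and HOXB 0.781%. By paralog group, groups 9 to 13 held 69.8%, groups 4 to 8 held 26.2% and groups 1 to 3 held 3.97%. Paralog group 10 alone held 42.1% and group 9 held 17.4%. HOXA9, HOXA10 and HOXC10 together made up 51.7% of the summed level. In UE7T-9 Cont the share of groups 9 to 13 was 67.8%, 70.7% and 66.1%, and in UE7T-9 SHC4 it was 70.2%, 71.9% and 72.3%, with overlap between the groups. The summed level in UE7T-9 Cont was 76.3 ± 4.53 RPKM (SD, n = 3), against 72.9 ± 3.64 RPKM (SD, n = 3) with SHC4. Which of HOXA and HOXC was larger depended on the length used. When all reads of a gene were divided by its exon bases that belong to no other gene, HOXA held 49.5% and HOXC 41.8%. The reads themselves were not restricted to those bases.

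**Figure D2:**
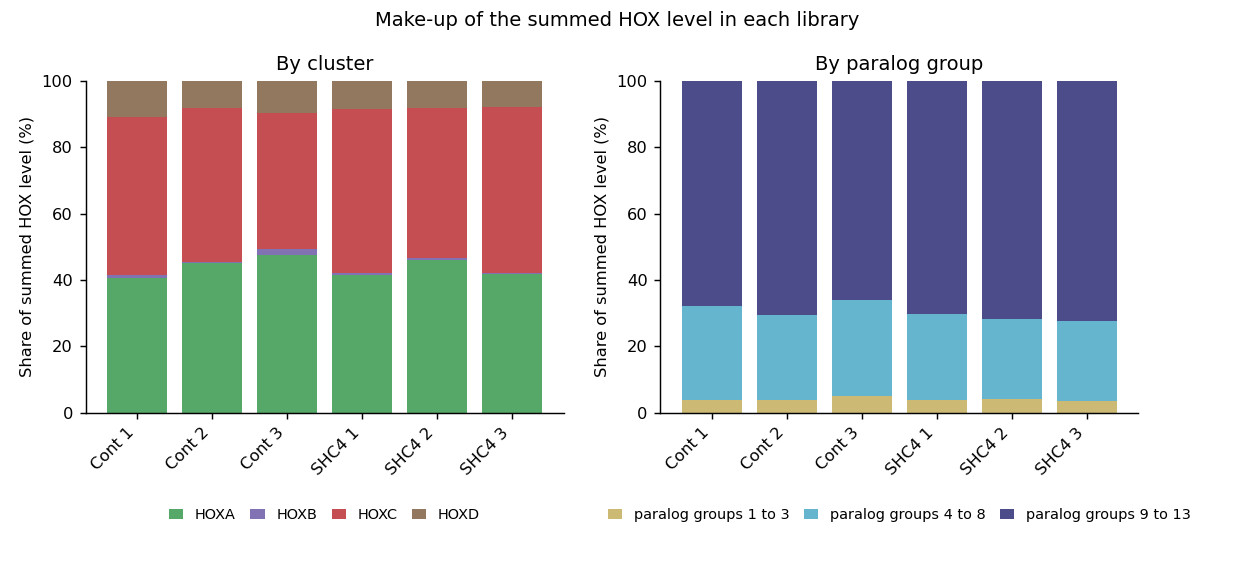
Share (percent) of the summed per-length HOX level held by each cluster (left) and by each range of paralog groups (right) in each of the 6 libraries; each bar adds to 100. HOXA and HOXC fill most of every bar, and groups 9 to 13 hold between 66.1% and 72.3%.

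Below the top, most neighbours in the order of levels overlapped. Of the 34 neighbouring pairs in the ranking of the 35 members, 31 had overlapping ranges over the 6 libraries and 3 did not. The 3 gaps lay between HOXC10 and HOXA10, between HOXA9 and HOXA5, and between HOXC11, the lowest member above 1, and HOXA13. From HOXA5 down to HOXC11 each member overlapped the next, with mean levels from 4.30 to 1.65. The order and the gaps hold for merged exon length and depended on the length used. With coding length, HOXC6 came close behind HOXA10, with mean levels of 20.8 and 23.7. When reads were divided by exon bases that no other gene shares, HOXA7 rose from rank 9 to rank 4. HOXC10 ranked first with each length.

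Overexpression of SHC4 was compared with the control to ask whether this pattern moved. No HOX gene passed the test. Of the 34 members whose mean normalized count was at least 1, limma called 0 (Benjamini-Hochberg adjusted p below 0.05 with an absolute log2 fold change over 1), where 0.0608% of all 23040 genes tested were called. The smallest adjusted p among them was 0.247, for HOXB5. DESeq2 called 0 of 23 members (2.20% of all genes it tested), and edgeR called 0 of 22 (0.0631%). At an unadjusted p below 0.05, limma gave 3 of 34 members, against 14.4% of all genes, DESeq2 gave 0 of the 23 to which it gave an adjusted p, and edgeR gave 0 of 22. The 3 members in limma were HOXB4, HOXB5 and HOXD12, all with lower values in UE7T-9 SHC4, against 6.96% of all genes in that direction. DESeq2 gave no adjusted p for HOXB4, whose unadjusted p was 0.0317 in that tool. Differences ran in both directions, with 17 members higher and 17 lower, and their median log2 fold change was 0.02, beside -0.004 over all genes tested.

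For most of the abundant members the interval bounded the difference between the groups, given a spread between libraries that may be partly technical. HOXC10 normalized counts were 1227, 1220 and 947 in UE7T-9 Cont against 1324, 1198 and 1291 in UE7T-9 SHC4. There was overlap, since UE7T-9 SHC4 replicate 2 lay below the upper 2 control libraries. Its log2 fold change on the log2(normalized count + 1) scale was 0.18 ± 0.14 (SE), with a 95% interval from -0.13 to 0.49.

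HOXA10 had 593, 604 and 612 in UE7T-9 Cont against 650, 811 and 647 in UE7T-9 SHC4. On normalized counts HOXA10 was the only abundant member whose groups did not overlap, with all 3 UE7T-9 SHC4 libraries above all 3 controls. The log2 fold change was 0.21 ± 0.13 (SE), which limma did not call (adjusted p = 0.50). This depended on the scaling. In RPKM, which is scaled to the library total, the groups overlapped, with 6.86, 7.63 and 8.19 against 7.58, 9.48 and 7.50. With library size scaling the log2 fold change was 0.11.

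HOXA9 had 409, 562 and 627 in UE7T-9 Cont against 525, 504 and 488 in UE7T-9 SHC4. The lowest value and the 2 highest values were all controls, so the spread lay within that group, and the log2 fold change was -0.05 ± 0.17 (SE).

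HOXA5 counts were 186, 183 and 163 in UE7T-9 Cont against 145, 137 and 167 in UE7T-9 SHC4, a log2 fold change of -0.25 ± 0.17 (SE). HOXD8 counts were 229, 167 and 204 in UE7T-9 Cont against 168, 150 and 168 in UE7T-9 SHC4, a log2 fold change of -0.29 ± 0.18 (SE). In both genes the means were lower in UE7T-9 SHC4, and on normalized counts the ranges of the groups overlapped. The overlap depended on the scaling. In RPKM the highest UE7T-9 SHC4 library lay below the lowest control, with 4.19 against 4.68 for HOXA5 and 2.76 against 2.98 for HOXD8. With library size scaling the log2 fold changes were -0.35 and -0.40, which limma did not call (adjusted p = 0.406 and 0.361). HOXC6, a thoracic gene, had 375, 286 and 292 against 401, 309 and 312, and HOXC9 had 122, 117 and 143 against 148, 108 and 141. Their log2 fold changes were 0.10 ± 0.17 (SE) and 0.05 ± 0.20 (SE). HOXD9 had 105, 65.9 and 63.0 against 83.5, 78.2 and 60.5, and HOXD13 had 36.1, 21.2 and 25.6 against 29, 33.3 and 25.6. In these 4 genes the ranges overlapped and the estimates were smaller than their standard errors.

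HOXA3 had the largest log2 fold change among members whose mean normalized count was at least 20. HOXA3 counts were 70.2, 35.3 and 37.4 in UE7T-9 Cont against 79.1, 80.7 and 58.2 in UE7T-9 SHC4. UE7T-9 Cont replicate 1 lay inside the range of UE7T-9 SHC4, apart from the other controls, and the log2 fold change was 0.66 ± 0.33 (SE), with an adjusted p of 0.401 from limma. Without that library DESeq2 gave 1.01 for HOXA3, with an adjusted p of 0.059.

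Of the 18 members whose mean normalized count was at least 20, 15 had a 95% interval that lay wholly between a 2-fold decrease and a 2-fold increase, against 75.6% of all genes of that abundance. HOXA3 and HOXD10 were among the 3 whose interval reached further. Log2 fold changes of the 18 ran from -0.45 to 0.66.

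**Figure D3:**
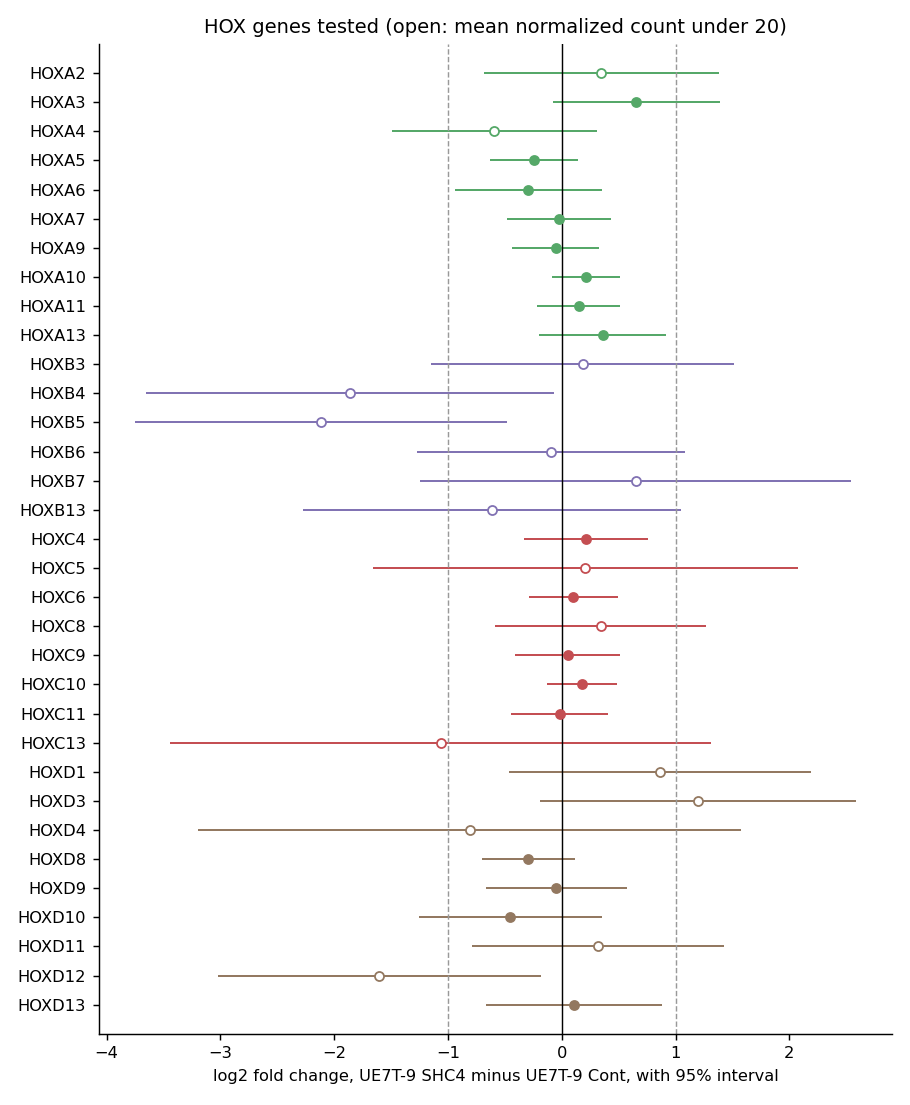
Log2 fold change of UE7T-9 SHC4 against UE7T-9 Cont for 33 of the 34 HOX genes tested, with 95% intervals from limma, coloured by cluster; open circles have a mean normalized count under 20, and dashed lines mark -1 and 1. The filled circles lie between -0.45 and 0.66, and the wide intervals belong to the low members, among them all 6 HOXB genes tested.

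Members near the floor had wide intervals, and a difference between the groups was not detectable at this depth and spread between libraries in most of them. HOXB5 had 10, 6 and 12 reads in UE7T-9 Cont against 6, 0 and 1 in UE7T-9 SHC4. Its normalized counts were 9.75, 7.06 and 11.8 against 5.27, 0 and 1.16, which did not overlap, with a log2 fold change of -2.12 ± 0.73 (SE). HOXB4, which expands blood stem cells when overexpressed, had 2, 2 and 16 reads in UE7T-9 Cont against 1, 1 and 0 in UE7T-9 SHC4, so that only UE7T-9 Cont replicate 3 lay above the floor. HOXD12, a distal limb gene, had 2, 3 and 3 reads against 1, 0 and 0, at or under the floor in all libraries, and no fold is given. HOXB13 had 12, 2 and 18 reads against 7, 10 and 2, and HOXB6 had normalized counts of 9.75, 4.71 and 14.8 against 8.79, 9.16 and 6.99. HOXD3 had normalized counts of 2.92, 5.89 and 0.984 against 7.03, 10.8 and 5.82, and the highest control overlapped the lowest UE7T-9 SHC4 library.

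HOXC13 depended on 1 library. It had 0, 17 and 11 reads in UE7T-9 Cont against 1, 4 and 2 in UE7T-9 SHC4. With all libraries the log2 fold change was -1.07 ± 1.05 (SE). Without UE7T-9 Cont replicate 1 it was -2.39 in limma (adjusted p = 0.0655) and -2.73 in edgeR (adjusted p = 0.0479), and edgeR then called it as the only HOX gene, where it called 695 genes in all (4.28% of those it tested).

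On normalized counts the groups did not overlap in 4 of the 34 members, namely HOXA10 above and HOXB4, HOXB5 and HOXD12 below the controls, against 19.3% of all genes tested (9.13% above and 10.2% below). With library size scaling there were 5, namely HOXA5, HOXB4, HOXB5, HOXD8 and HOXD12, all below the controls, whereas HOXA10 overlapped. The share of all genes with that scaling is not given here. On normalized counts without UE7T-9 Cont replicate 1 there were 11 such members, against 40.0% of all genes. Limma then still called 0 HOX genes (3.06% of all genes) and so did DESeq2 (5.57%). In limma 6 of the 34 then had an unadjusted p below 0.05. The share of all genes at that limit in this fit is not given here, so the 6 cannot be read as more than that share.

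The partners and regulators of HOX genes were examined for the same comparison. All 9 TALE cofactors were detected in every library, and limma and DESeq2 called none of them, with 1 at an unadjusted p below 0.05 in limma (14.4% of all genes). This was MEIS3, with 449, 177 and 116 normalized counts in UE7T-9 Cont against 637, 460 and 446 in UE7T-9 SHC4. UE7T-9 Cont replicate 1 lay with UE7T-9 SHC4, and the log2 fold change was 1.27 ± 0.41 (SE), with an adjusted p of 0.227. Without that library it was 1.82 and limma called it (adjusted p = 0.0037), where 3.06% of all genes were called.

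Among 28 genes of the Polycomb repressive complexes, limma and DESeq2 called 0. At an unadjusted p below 0.05 limma gave 6 (14.4% of all genes), of which 5 were lower in UE7T-9 SHC4 (6.96% of all genes) and 1 was higher. The groups did not overlap in 8 of the 28 (19.3% of all genes), with 7 lower (10.2%) and 1 higher (9.13%). MTF2, an accessory subunit that recruits PRC2 to DNA, had 534, 554 and 667 in UE7T-9 Cont against 391, 381 and 424 in UE7T-9 SHC4. All 3 UE7T-9 SHC4 libraries lay below the controls, and the log2 fold change was -0.55 ± 0.14 (SE), with an adjusted p of 0.174 in limma and 0.0398 in DESeq2. SUZ12, a core PRC2 subunit, was similar in direction, with 2162, 2397 and 2495 against 1602, 1805 and 1848, a log2 fold change of -0.42 ± 0.12 (SE) and adjusted p values of 0.196 in limma and 0.068 in DESeq2. The higher member was EZH1, with 642, 626 and 812 against 860, 1143 and 1005. Its log2 fold change was 0.53 ± 0.16 (SE), with adjusted p values of 0.199 in limma and 0.0905 in DESeq2. None of these differences reached a log2 fold change of 1. Over all 28 estimates, 14 were above 0 and 14 below, with a median log2 fold change of 0.005, beside -0.004 over all genes.

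Of the 12 Trithorax and H3K27 demethylase genes, limma and DESeq2 called 0, and 1 had an unadjusted p below 0.05 in limma (14.4% of all genes). This was KDM6A, an H3K27 demethylase, with 837, 1058 and 959 against 737, 777 and 793 and a log2 fold change of -0.30 ± 0.13 (SE). DOT1L, an H3K79 methyltransferase, had 1232, 1085 and 1074 against 1153, 984 and 786, with overlapping groups.

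Noncoding genes inside the clusters were largely low. Of 19 long noncoding RNAs, 15 were listed and 13 were tested. Limma and DESeq2 called 0, and 1 had an unadjusted p below 0.05 in limma (14.4% of all genes). HOXA11-AS, which runs antisense to HOXA11, had 50.7, 27.1 and 28.5 normalized counts in UE7T-9 Cont against 69.4, 52.4 and 54.7 in UE7T-9 SHC4, with a log2 fold change of 0.76 ± 0.33 (SE) and an adjusted p of 0.329. HOTAIR, transcribed from the HOXC cluster, had a mean level of 1.23 RPKM, and HAGLR, from the HOXD cluster, 2.36. HOTTIP, at the 5′ end of HOXA, had 0, 2.35 and 4.92 against 3.52, 6.66 and 6.99 normalized counts, close to the floor. Of a list of 6 further homeobox genes, namely the caudal genes CDX1, CDX2 and CDX4, the EVX genes and GBX2, EVX1 and GBX2 were tested and not called by limma, and neither had an unadjusted p below 0.05. EVX1, which lies beyond the 5′ end of HOXA, had 0, 8.24 and 0.984 normalized counts against 6.15, 8.32 and 4.66. GBX2 had 40.9, 41.2 and 50.2 against 54.5, 33.3 and 19.8.

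Position genes outside the HOX clusters were measured as well. Of 30 genes chosen for limb type and body wall, 23 were listed and tested. PITX1, which specifies the hindlimb, had a mean level of 5.61 RPKM, whereas TBX4, its partner in the hindlimb, was at 0.0525. Body wall and limb bud genes were among the higher ones, with TBX15 at 13.1, TBX18 at 7.70 and SHOX2 at 10.3. In the comparison limma called 0 of the 23, with 7 at an unadjusted p below 0.05 (14.4% of all genes), 3 of them higher and 4 lower. The groups did not overlap in 9 of the 23 (19.3% of all genes), with 5 higher and 4 lower. DESeq2 called 1 of the 21 it tested (2.20% of all genes). This was PAX9, a gene of the sclerotome and pharyngeal pouches, with 88.7, 155 and 146 in UE7T-9 Cont against 64.2, 59.1 and 59.4 in UE7T-9 SHC4. The log2 fold change was -1.04 ± 0.26 (SE) with an adjusted p of 0.170 in limma, and -1.09 with an adjusted p of 0.0164 in DESeq2. HAND2, a gene of posterior limb bud identity, had 458, 410 and 420 against 497, 984 and 780. Its log2 fold change was 0.76 ± 0.22 (SE), with an adjusted p of 0.201 in limma and 0.0424 in DESeq2. Without UE7T-9 Cont replicate 1 limma called 3 of the 89 genes tested from all these lists, near the 3.06% of all genes that it then called. These were MEIS3, PAX9 and LHX9, with LHX9, a limb bud gene, at 1.11 (adjusted p = 0.0259). With all 6 libraries edgeR and limma-voom called 0 genes of these lists.

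**Figure D4:**
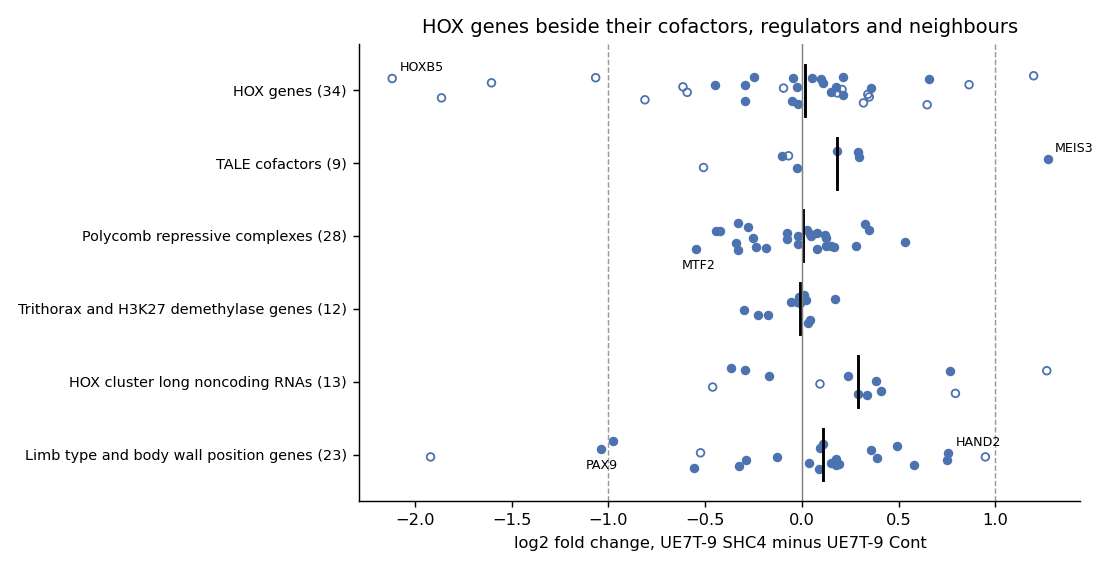
Log2 fold change of UE7T-9 SHC4 against UE7T-9 Cont for the HOX genes and 5 related lists, 1 point per gene with the number of genes tested in brackets (2 genes are not drawn); open circles have a mean normalized count under 20, black bars are medians over all genes tested, and dashed lines mark -1 and 1. The HOX median is 0.02, and MEIS3 and PAX9 lie just beyond 1 and -1.

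PDGFRB, a receptor that marks mesenchymal cells, differed in the same comparison. It had 4122, 1487 and 1678 normalized counts in UE7T-9 Cont against 6634, 5281 and 5178 in UE7T-9 SHC4, called by DESeq2 with a log2 fold change of 1.23 (adjusted p = 0.0171) and not by limma (1.38, adjusted p = 0.162). The summed normalized count of the 7 mesenchymal markers ranged from 81303 to 90569 in UE7T-9 Cont and from 93533 to 104536 in UE7T-9 SHC4. For the 6 hematopoietic markers these ranges were 156 to 168 and 128 to 161. They were 58.0 to 78.9 and 49.2 to 96.7 for the endothelial markers, and 17.7 to 34.1 and 9.16 to 29.9 for the epithelial markers. With all 6 libraries limma called none of these 4 lists' genes, with THY1 and PDGFRB at an unadjusted p below 0.05 (14.4% of all genes). Without UE7T-9 Cont replicate 1 limma called both, where it called 3.06% of all genes. PDGFRB was then at 1.84 (adjusted p = 0.000698), and DESeq2 and edgeR gave it 1.85 and 1.86 (adjusted p = 2.6e-22 and 0.00304). THY1 was at 1.67 (adjusted p = 0.00167). The part of cell state in the HOX values was not tested.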

How the data were processed

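RNA of UE7T-9 Cont and UE7T-9 SHC4 (3 libraries each, RNeasy extraction, NEBNext Ultra RNA kit) was sequenced by Novogene on a NovaSeq system. Per the submitters' processing notes, HISAT2 2.0.5, featureCounts 1.5.0-p3 and DESeq2 were used; the genome build, annotation and strand setting are not given in the sources used here. The authors deposited 1 signal value per gene and library, a count divided by the size factor of its library (normalized count). Dividing by the smallest nonzero value of a library gave whole reads for 100% of values (tolerance 0.01 reads), with size factors from 0.849 to 1.20.

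All 28181 Ensembl identifiers matched GENCODE 29 on GRCh38, which gave symbols, positions and exon lengths. Levels are recovered reads per kilobase of merged exons, scaled to the library total (RPKM). Homeodomain stretches were read from the GENCODE 29 transcripts. Groups were compared with limma 3.58.1 (R 4.3.3; trend) on log2(normalized count + 1) for 23040 genes (mean normalized count at least 1), a scale that understates changes of low genes, with Benjamini-Hochberg adjustment. A call needed an adjusted p below 0.05 together with an absolute log2 fold change over 1. Alternatives were DESeq2 1.42.0, edgeR 4.0.16 and limma-voom on the recovered reads, other filters, scalings and pseudocounts, a replicate block, other gene lengths and leaving out each library. DESeq2 and edgeR without UE7T-9 Cont replicate 1 were added after seeing the data. The fits were tested on simulated counts.

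The HOX members and the other lists were chosen with earlier results of these data known. Named in the text were HOX genes called by any tool, the 3 highest and the 2 of smallest unadjusted p per cluster, and members under the floor; in each other list, genes called by limma or DESeq2, or else the 2 of smallest unadjusted p. Other genes, such as EZH1, HOTAIR, HAND2, PITX1 or LHX9, were chosen after their values were seen. Some values that fall under this rule are not reported here.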

Additional observations from a re-analysis of the deposited data

How the results depend on the processing

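The count of HOX genes called stayed at 0 under every alternative run except edgeR without UE7T-9 Cont replicate 1, which called 1 (HOXC13). The count over all genes moved more. It was 14 in the limma fit, 40 with no filter, 28 with library size scaling, 24 with TMM, 9 with limma-voom and 355 with DESeq2. It ranged from 2 to 706 when 1 library was left out, with 706 without UE7T-9 Cont replicate 1. Without that library, DESeq2 called 892 genes and edgeR 695. In the cofactor, regulator and position lists DESeq2 called 1 of 82 genes (2.20% of all genes), and leaving out single libraries gave 0 to 3 in limma. Without UE7T-9 Cont replicate 1 limma called 3 of 89 (3.06% of all genes). DESeq2 and edgeR then called 3 of 82 each (5.57% and 4.28% of all genes). Library size scaling shifted the median of all genes to -0.10 (log2) and left 15 HOX genes higher and 19 lower.

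Small differences changed sign in some settings. With library size scaling HOXC6 was -0.0031 and HOXC9 -0.052. HOXD9 was 0.21 in both DESeq2 and edgeR without UE7T-9 Cont replicate 1. Over the fits that left out 1 library each, log2 fold changes ran from -0.23 to 0.075 for HOXA9, from -0.49 to 0.24 for HOXB6, from -0.023 to 0.22 for HOXC6, from -0.035 to 0.19 for HOXC9, from -0.058 to 0.31 for HOXD13, from -0.18 to 0.19 for HOXD9 and from -1.01 to 0.19 for CDH1. The causes were not tested.

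The groups share replicate numbers. Within each number, the deviations of both libraries from their group's mean had correlations of 0.148, 0.013 and -0.007 over the 23040 genes tested, and of 0.409, 0.146 and 0.149 over the 12678 whose mean normalized count was 50 or more. In both sets UE7T-9 Cont replicate 2 correlated best with UE7T-9 SHC4 replicate 3 (0.0992 and 0.517). The labels do not say what a number marks, and whether the numbers pair the libraries remains unsettled, since it differs with the genes used. A replicate block in limma gave 39 called genes and 0 HOX genes, with a smallest adjusted p of 0.178 (HOXB5), and 0 genes of the other lists. At 3611 to 5305 HOX reads per library, 17 of the 35 members had a mean normalized count under 20, and some of these also differed widely between libraries of a group, such as HOXB4 with 2, 2 and 16 reads in UE7T-9 Cont.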
